A study of Drosophila melanogaster with 47 samples.

Results

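The rhodopsins of the fly are encoded by a small family of opsin genes, and 7 of them, *ninaE*, *Rh2*, *Rh3*, *Rh4*, *Rh5*, *Rh6* and *Rh7*, were followed in RNA from heads over the day. The members are the listed opsin symbols, and no threshold on a measured value was used. They are 7 of 17137 genes listed in the counts, and all 7 were among the 11027 genes tested after low counts were filtered out. A rhodopsin is a light-sensing receptor made of an opsin protein and a retinal-type chromophore. Each facet of the compound eye holds the outer photoreceptors R1 to R6, which express *ninaE* (the opsin of Rh1), and the inner photoreceptors R7 and R8. In pale facets R7 expresses *Rh3* and R8 expresses *Rh5*, and in yellow facets R7 expresses *Rh4* and R8 expresses *Rh6*. *Rh2* is the opsin of the ocelli, the simple eyes on top of the head, and *Rh7* is known from photoreceptors and from clock neurons of the brain.

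Poly(A) RNA was sequenced from whole heads of male and female flies kept for 4 d in 12 h of light and 12 h of dark at 25 °C, and collected at zeitgeber times (ZT, hours after lights on) 2, 6, 10, 14, 18 and 22. Of the control strain *yw* there were 11 libraries, in duplicate except for the single one at ZT18. The 4 other strains were homozygous for CRISPR deletions in regulatory DNA of the clock gene *tim*: *tim_in24* (24 bp removed from an intron, 6 libraries), *tim_up10* (10 bp removed upstream of the gene, 6 libraries), *tim_up122* (122 bp upstream, 12 libraries) and *tim_up126* (126 bp upstream, 12 libraries). The strains with 6 libraries were sequenced once per time point and those with 12 in duplicate, and each deletion was represented by 1 strain, so the deletion and the rest of the strain's genome cannot be told apart. Transcripts of *y* and *w*, the genes mutated in *yw*, were at most 1.29 and 5.03 CPM (reads of a gene per 1000000 reads of its library, after TMM scaling) in any of the 47 libraries, so the low level was shared by all 5 strains.

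Totals ran from 1761896 to 10230355 counts per library (median 4791932). The targeted gene followed the labels: the median of *tim* was 928 CPM in *yw*, 777 in *tim_in24*, 399 in *tim_up10*, 341 in *tim_up122* and 144 in *tim_up126*. The 2 libraries labelled *yw* ZT22 differed in *tim*, with 1535 CPM in replicate 1 and 448 CPM in replicate 2, and both were kept as labelled. Whether a label is wrong was not tested. Strain differences, light against dark and the rhythm over all strains were also fitted without both, and results that change are given both ways. Rhythms within *yw*, differences in rhythm from *yw* and opsin ratios were not tested without both. In 1 library, *tim_in24* ZT22, long transcripts were low. The Spearman correlation across genes between transcript length and deviation from the mean over all libraries was -0.40 there. In the other 46 it was -0.17 to 0.25. The mean was taken over all strains, so differences between strains enter this measure. The replicates of *tim_up126* also differed in this measure, with -0.13 to -0.03 in those numbered 1 and 0.16 to 0.25 in those numbered 2. In *tim_up122* they were 0.029 to 0.092 in those numbered 1 and -0.16 to -0.035 in those numbered 2, so the replicates of both strains did not overlap. The submitters describe replicates as independent and biological, and p-values measure the spread between these samples only.

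In the dm6 annotation, *ninaE* (FBgn0002940) lies on chromosome 3R from 19886255 to 19888206, *Rh2* (FBgn0003248) on 3R from 18899423 to 18901019, *Rh3* (FBgn0003249) on 3R from 20081060 to 20082450 and *Rh6* (FBgn0019940) on 3R from 15483158 to 15484699. *Rh4* (FBgn0003250) lies on 3L from 16852527 to 16862517, *Rh7* (FBgn0036260) on 3L from 12164205 to 12175482, and *Rh5* (FBgn0014019) on 2L from 12008153 to 12009832. *Rh3* has a single exon, while *ninaE* has 5 and *Rh7* has 4. The annotated coding lengths gave proteins of 362 residues for *Rh6* to 483 residues for *Rh7*, with *ninaE* at 373. The gene span of *Rh4* holds 3 other genes, *sina*, *sinah* and CG13029. The strand setting of the counting is not given, so reads of these 3 genes and of unspliced *Rh4* RNA might not be separated. In any library *sina* had at most 79.2 CPM and *sinah* at most 10.2 CPM, against at least 1134 CPM for *Rh4*. No opsin gene had the same counts as another listed gene.

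The outer opsin dominated the family. *ninaE* ranged from 16685 to 31896 CPM over the 47 libraries, with a median of 26746, and it had the highest mean of all genes tested. It made up between 79.0 and 89.1% of the opsin counts of a library. All opsins together took 2.13 to 3.67% of the counts of a library, with a median of 3.07%. Divided by the length of the longest annotated transcript, the mean level was 16564 CPM per kb for *ninaE*, 1299 for *Rh4*, 720 for *Rh6*, 622 for *Rh3*, 199 for *Rh5*, 176 for *Rh2* and 11.7 for *Rh7*.

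Most steps in this order held in every library. On the scale per kb, *ninaE* was above *Rh4*, *Rh4* above *Rh6*, *Rh3* above *Rh5*, and *Rh2* above *Rh7* in 47 of 47 libraries. *Rh6* was above *Rh3* in 38 of 47 libraries, with a ratio of 0.838 to 1.69. *Rh5* was above *Rh2* in 30 of 47, with a ratio of 0.627 to 5.99. So the order of these neighbours was not the same in every library, and no test of it was made. The order of *Rh5* and *Rh2* also varied between strains. The mean of *Rh5* per kb was above that of *Rh2* in *tim_up122* and below it in *tim_up126*. For both R7 and R8, the opsin of yellow facets was the more abundant: *Rh4* exceeded *Rh3*, and *Rh6* exceeded *Rh5*. *Rh7* was the least abundant, at 26.1 to 60.0 CPM. Its mean level ranked 3894 among the genes tested, and its lowest library still held 82 counts.

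**Figure D1:**
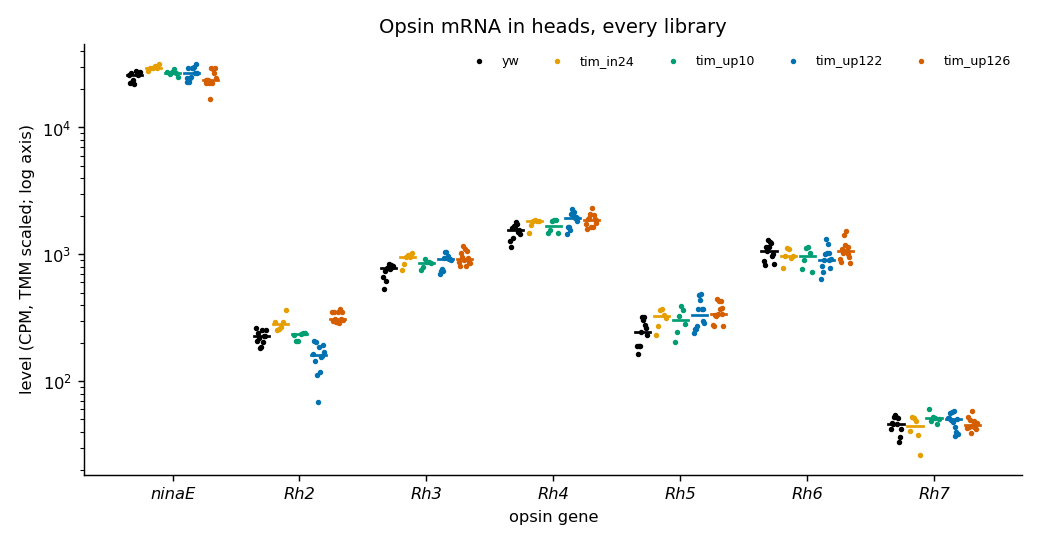
Level of each opsin gene in every library, in CPM scaled by TMM on a log axis, by strain; points are libraries and bars are the medians of a strain. *ninaE* lies at 16685 CPM or more in every library and *Rh7* at 60.0 CPM or less, and *Rh2* in *tim_up126* lies above *Rh2* in *tim_up122* in every library.

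Each deletion strain was then compared with *yw* over the day, as the mean of the differences at the 6 time points, with edgeR's quasi-likelihood test and p-values adjusted over all genes tested. The 4 comparisons share the *yw* libraries. A group of strain and time point with 1 library gives no spread. The p-values of *tim_in24* and *tim_up10* in these comparisons thus rest on the spread between duplicates of the other strains. In *tim_in24*, 5 of 7 opsins rose and none fell, where 25.5% of all genes were called. In *tim_up10*, 1 of 7 rose, with 23.4% of all genes called. In *tim_up122*, 3 rose and 1 fell, with 26.2% of all genes called, and in *tim_up126*, 4 rose, with 25.4% called. The median log2 fold change of all genes tested lay between -0.04 and 0.00 in the 4 comparisons. Without both *yw* ZT22 libraries 2 opsins, *Rh3* and *Rh5*, rose in *tim_in24* in place of 5, and so they did without *tim_in24* ZT22. In a whole head, fewer cells of a type and less RNA per cell cannot be told apart.

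*Rh5*, the blue-sensitive opsin of pale R8 cells, was higher in all 4 deletion strains. It ranged from 165 to 320 CPM in *yw* (median 246), 233 to 369 in *tim_in24* (median 324), 203 to 389 in *tim_up10* (median 304), 242 to 485 in *tim_up122* (median 335) and 270 to 448 in *tim_up126* (median 338). Over the whole day these ranges overlapped. Within a time point they did not: every library of each deletion strain was above every *yw* library at all 6 time points. Such a separation was seen in 8.17% of the genes tested for *tim_in24*, 8.47% for *tim_up10*, 2.74% for *tim_up122* and 3.01% for *tim_up126*.

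The log2 fold change of *Rh5* was 0.36 ± 0.072 (SE) in *tim_in24* (adjusted p = 0.000487), 0.28 ± 0.073 in *tim_up10* (adjusted p = 0.00588), 0.47 ± 0.060 in *tim_up122* (adjusted p = 1.58e-06) and 0.52 ± 0.060 in *tim_up126* (adjusted p = 3.29e-07). In percent, *Rh5* was thus 21.4% to 43.3% above *yw*. With libraries scaled to their totals alone the value in *tim_up10* was 0.15 and did not pass (adjusted p = 0.0922). Between deletion strains *Rh5* differed only from *tim_up10* to *tim_up126* (0.24, adjusted p = 0.0431) among the 6 pairs tested, in a comparison where 6.82% of all genes were called. For *tim_up126* minus *tim_up122* it was 0.05 (95% interval -0.07 to 0.17).

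*Rh6*, the green-sensitive opsin of yellow R8 cells, did not pass the test in any of the 4 comparisons, and in *tim_up122* and *tim_up10* this depended on the settings. Its libraries ranged from 819 to 1298 CPM in *yw* (median 1058), 784 to 1116 in *tim_in24* (median 968), 727 to 1149 in *tim_up10* (median 972), 636 to 1331 in *tim_up122* (median 910) and 855 to 1525 in *tim_up126* (median 1054). All these ranges overlapped over the day. Within time points, the libraries of *tim_in24* and of *tim_up10* were below every *yw* library at 5 of 6 time points, those of *tim_up122* at 3 and those of *tim_up126* at 0. The share of all genes with such counts was not taken, and *tim_in24* and *tim_up10* had 1 library per time point. The log2 fold change was -0.10 in *tim_in24* (95% interval -0.27 to 0.08), -0.15 in *tim_up10* (-0.33 to 0.03), -0.17 in *tim_up122* (-0.31 to -0.02, adjusted p = 0.0877) and 0.05 in *tim_up126* (-0.09 to 0.20). For *tim_up122* the value rested on the replicates: it was -0.37 among libraries numbered 1 (adjusted p = 6.48e-05) and 0.01 among those numbered 2 (adjusted p = 0.921). It passed as lower with library totals (-0.21, adjusted p = 0.0376), with no filter on low counts (-0.16, adjusted p = 0.0316) and in an additive model of strain and time (-0.18, adjusted p = 0.0203). In *tim_up10*, *Rh6* passed as lower with library totals (-0.28, adjusted p = 0.0169). *Rh6* was higher in *tim_up126* than in *tim_up122* by 0.22 (standard error 0.068, adjusted p = 0.0375), where 11.4% of all genes were called.

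The opsins of R7, both sensitive to ultraviolet light, moved together. *Rh3* (pale R7) ranged from 533 to 837 CPM in *yw* (median 775), 753 to 1018 in *tim_in24* (median 951), 747 to 925 in *tim_up10* (median 856), 704 to 1047 in *tim_up122* (median 922) and 815 to 1163 in *tim_up126* (median 916). The libraries of *tim_in24* and *tim_up10* were above those of *yw* at all 6 time points, and those of *tim_up122* and *tim_up126* at 5. Separation at all 6 was seen in 8.17% of the genes tested for *tim_in24* and 8.47% for *tim_up10*. For 5 of 6 time points the share of all genes was not taken. The log2 fold change was 0.29 in *tim_in24* (adjusted p = 0.00222), 0.18 in *tim_up10* (adjusted p = 0.0706), 0.24 in *tim_up122* (adjusted p = 0.00259) and 0.34 in *tim_up126* (adjusted p = 6.71e-05). So *Rh3* rose in 3 of the 4 strains, and in *tim_up10* its 95% interval was 0.03 to 0.32.

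*Rh4* (yellow R7) ranged from 1134 to 1799 CPM in *yw* (median 1551), 1473 to 1871 in *tim_in24* (median 1831), 1474 to 1880 in *tim_up10* (median 1687), 1441 to 2261 in *tim_up122* (median 1943) and 1580 to 2333 in *tim_up126* (median 1877). The ranges overlapped, with 8 of 12 libraries of *tim_up122* and 7 of 12 of *tim_up126* above the highest *yw* library. The share of all genes with such counts was not taken. The log2 fold change was 0.22 in *tim_in24* (adjusted p = 0.0216), 0.15 in *tim_up10* (adjusted p = 0.139), 0.30 in *tim_up122* (adjusted p = 0.000243) and 0.31 in *tim_up126* (adjusted p = 0.000229). Between deletion strains neither *Rh3* nor *Rh4* passed the test in any of the 6 pairs, and between *tim_up10* and *tim_in24* no opsin did, where 7.35% of all genes were called.

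*ninaE* rose only in *tim_in24* among the 4 comparisons. It ranged from 22038 to 27791 CPM in *yw* (median 26069), 27874 to 31852 in *tim_in24* (median 29459), 25033 to 28775 in *tim_up10* (median 26977), 22914 to 31896 in *tim_up122* (median 26972) and 16685 to 29599 in *tim_up126* (median 23773). All 6 libraries of *tim_in24* were above the highest *yw* library. These *tim_in24* libraries were thus above every *yw* library at all 6 time points, as in 8.17% of all genes tested. The log2 fold change there was 0.24 (standard error 0.084, adjusted p = 0.0402), and it no longer passed on leaving out 1 library in 8 of 17 cases (adjusted p up to 0.108, without *tim_in24* ZT10). The values were 0.09 in *tim_up10*, 0.10 in *tim_up122* and -0.05 in *tim_up126* (adjusted p = 0.507, 0.360 and 0.658). *ninaE* was lower in *tim_up126* than in *tim_in24* by 0.29 on the log2 scale (-0.29, adjusted p = 0.0233), where 10.4% of all genes were called.

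*Rh2*, the ocellar opsin, went in opposite directions in the 2 strains with the long upstream deletions. It ranged from 183 to 264 CPM in *yw* (median 227), 69.1 to 209 in *tim_up122* (median 162) and 287 to 372 in *tim_up126* (median 310). All 12 libraries of *tim_up126* were above the highest *yw* library, and 8 of 12 libraries of *tim_up122* were below the lowest. The *tim_up126* libraries were thus above every *yw* library at all 6 time points, as in 3.01% of all genes tested. The share of all genes with a count like that of *tim_up122* was not taken. In *tim_up122* the replicates at ZT10, with 112 and 69.1 CPM, were the lowest of the strain. The log2 fold change was -0.55 ± 0.088 (SE) in *tim_up122* (adjusted p = 3.2e-05) and 0.53 ± 0.087 in *tim_up126* (adjusted p = 4.22e-05).

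The direct comparison of *tim_up126* with *tim_up122* gave 1.08 for *Rh2* (standard error 0.085, adjusted p = 1.59e-09), the widest strain difference of any opsin among the 10 pairs of strains. *Rh2* was also higher in *tim_in24*, at 251 to 366 CPM (0.36, adjusted p = 0.0110), and this did not pass without the library *tim_in24* ZT22 (0.31, adjusted p = 0.0514). In *tim_up10*, at 206 to 242 CPM, the value was 0.02 (95% interval -0.20 to 0.24). Between *tim_up122* and *tim_up10* it was -0.57 (adjusted p = 0.000903), where 7.66% of all genes were called.

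*Rh7* passed the test in none of the 4 comparisons with *yw*. It ranged from 33.1 to 54.0 CPM in *yw* (median 45.9), 26.1 to 52.4 in *tim_in24* (median 44.6), 45.8 to 60.0 in *tim_up10* (median 51.0), 37.3 to 58.0 in *tim_up122* (median 50.2) and 39.4 to 58.6 in *tim_up126* (median 44.95). The log2 fold changes lay between -0.08 in *tim_in24* and 0.22 in *tim_up10* (adjusted p = 0.565 and 0.0739). The transcript of *Rh7*, at 4014 bases, is the longest of the family, and its lowest value was in *tim_in24* ZT22, the library in which long transcripts were low. Without that library the value in *tim_in24* was 0.02.

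**Figure D2:**
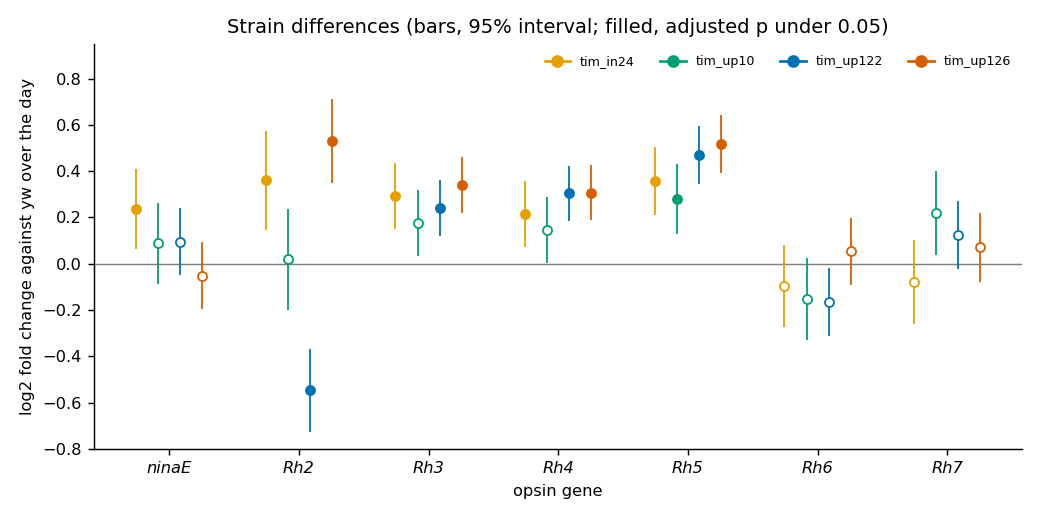
Log2 fold change of each opsin gene against *yw* over the day in the 4 deletion strains (edgeR), with 95% intervals; filled points have an adjusted p under 0.05. *Rh5* is above 0 in all 4 strains, from 0.28 to 0.52, and *Rh2* is at -0.55 in *tim_up122* and 0.53 in *tim_up126*.

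Photoreceptor transcripts other than opsins also differed between the strains. The summed level of 11 photoreceptor markers (*chp*, *eys*, *prom*, *trp*, *trpl*, *inaD*, *ninaC*, *Arr1*, *Arr2*, *norpA* and *ninaA*) was 22936 to 35217 CPM in *yw* (median 29320), 32963 to 39223 in *tim_in24* (median 36281), 32457 to 36484 in *tim_up10* (median 34921), 26103 to 36535 in *tim_up122* (median 32852) and 20586 to 39468 in *tim_up126* (median 35141). Of these 11 genes, 6 were higher and 2 lower in *tim_in24*, 7 and 2 in *tim_up10*, 2 and 2 in *tim_up122*, and 5 and 0 in *tim_up126*. Of all genes tested, 11.2 to 12.6% were higher and 12.2 to 13.6% lower in the 4 strains. When each library was scaled to this sum, all genes shifted by -0.30, -0.25, -0.12 and -0.16 on the log2 scale in the 4 strains in that order. A sum weighs genes by their level, and *Arr2* and *Arr1* had means of 10069 and 6944 CPM over the 47 libraries. The median log2 fold change of the 11 markers was 0.16, 0.23, 0.10 and 0.08 in the same order. Scaling to this median was not tested.

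On that scale the increase of *Rh5* remained past the threshold in *tim_up122* (0.34, adjusted p = 0.000260) and *tim_up126* (0.35, adjusted p = 0.000167) but not in *tim_in24* (0.05, adjusted p = 0.557) or *tim_up10* (0.02, adjusted p = 0.825). *Rh2* kept both directions, with -0.67 in *tim_up122* (adjusted p = 2.42e-06) and 0.37 in *tim_up126* (adjusted p = 0.00236). *Rh6* was then lower in *tim_in24* (-0.40, adjusted p = 0.000307), *tim_up10* (-0.41, adjusted p = 0.000349) and *tim_up122* (-0.29, adjusted p = 0.00142). On the same scale *ninaE*, *Rh3* and *Rh4* in *tim_in24* were at -0.06, -0.00 and -0.08, and none of these passed the test. *Rh7* was lower in *tim_in24* (-0.39, adjusted p = 0.00799). So in *tim_in24* 0 opsins were higher and 2, *Rh6* and *Rh7*, lower, and the call of *Rh2* was lost (0.062, adjusted p = 0.628). In *tim_up10* the calls were *Rh6* and *ninaE* (-0.16, adjusted p = 0.0442), both lower. The call of *Rh3* in *tim_up122* was lost as well (0.12, adjusted p = 0.0859), while *Rh4* was higher there (0.18, adjusted p = 0.0101). *Rh3* and *Rh4* were still higher in *tim_up126* (0.18 and 0.14, adjusted p = 0.00982 and 0.0354) and *ninaE* was lower in that strain (-0.22, adjusted p = 0.00302).

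Some markers of other cells passed the test as well. Of all genes tested, 11.2 to 12.6% were higher and 12.2 to 13.6% lower in the 4 strains, so counts of 1 among a few markers lie near that share. Of 6 glial markers (*repo*, *nrv2*, *Gs2*, *alrm*, *moody*, *wrapper*), 4 were lower and 1 (*moody*, 0.13, adjusted p = 0.0357) higher in *tim_up122*, and 3 were lower in *tim_up126*, 1 in *tim_in24* and 2 in *tim_up10*, with none higher in these 3 strains. Their sum was 1839 to 2192 CPM in *yw* and 1335 to 2002 CPM in *tim_up122*. *repo*, a glial transcription factor, was lower in all 4 strains, by -0.16 to -0.30 on the log2 scale. Of 4 fat body markers, 2 to 3 were higher in each strain, and *apolpp*, the apolipophorin precursor, was higher in all 4 (0.36 to 0.96). *Lsp2*, a larval serum protein, differed in sign between strains, at -1.59 in *tim_in24* and 1.91 in *tim_up10*, and *AkhR*, the adipokinetic hormone receptor, was higher in *tim_in24*, *tim_up10* and *tim_up126* (0.75, 0.37 and 0.44). *Yp1*, a yolk protein made by females, was higher in all 4 (0.50 to 0.75), and *lncRNA:roX2*, an RNA made by males, was lower in *tim_in24*, *tim_up122* and *tim_up126* (-0.81, -0.45 and -0.49). Of the female markers *Yp1*, *Yp2* and *Yp3*, 1 was higher in *tim_in24*, 3 in *tim_up10*, 2 in *tim_up122* and 1 in *tim_up126*. Of the male markers roX1 and roX2, 1 was lower in each of *tim_in24*, *tim_up122* and *tim_up126*. Of 5 neuronal markers 1 passed the test in *tim_up122* and none in the other strains. Of 4 muscle markers, 3 were higher and 1 lower in *tim_in24*, and 2 were higher and 1 lower in *tim_up122*, and of 4 cone and pigment cell markers 1 or 2 were higher in each strain. The part of these cells, or of the mix of sexes, in the opsin differences was not tested.

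A ratio of 2 opsins within a library does not depend on how libraries are scaled. *Rh5* and *Rh6* are the alternative opsins of R8, and the share of *Rh5* in their summed counts was 14.2 to 22.2% in *yw* (median 19.5%), 21.9 to 26.1% in *tim_in24* (median 24.6%), 20.8 to 28.0% in *tim_up10* (median 23.98%), 23.3 to 30.1% in *tim_up122* (median 26.6%) and 21.9 to 27.2% in *tim_up126* (median 24.003%). The ranges of *tim_up122* and *yw* did not overlap at all, and at each of the 6 time points every library of each deletion strain was above every *yw* library.

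The ratio of *Rh5* to *Rh6* was tested by shuffling strain labels within time points (two-sided, adjusted over 16 tests of 4 ratios in 4 strains). By exact permutation the log2 ratio was higher than in *yw* by 0.46 in *tim_in24* and 0.43 in *tim_up10* (p = 0.00206 each, the smallest that 486 splits allow, adjusted p = 0.00366). It was higher by 0.64 in *tim_up122* and 0.47 in *tim_up126* (exact p = 4.29e-05 each, the smallest that 23328 splits allow, adjusted p = 0.000343). Within replicate numbers the mean difference was 0.80 and 0.51 in *tim_up122* and 0.52 and 0.42 in *tim_up126*. Leaving out any 1 library kept the adjusted p at 0.0110 or lower in all 4 strains.

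*Rh3* and *Rh4* are the alternative opsins of R7, and their ratio did not pass the test in any strain. The share of *Rh3* in their summed counts was 30.4 to 36.1% in *yw* (median 32.0%), 32.7 to 35.8% in *tim_in24*, 31.5 to 36.5% in *tim_up10*, 30.1 to 33.9% in *tim_up122* and 31.7 to 35.7% in *tim_up126*. All ranges overlapped. The log2 ratio differed from *yw* by 0.08, 0.03, -0.06 and 0.04 in *tim_in24*, *tim_up10*, *tim_up122* and *tim_up126* (exact permutation, adjusted p = 0.129, 0.628, 0.144 and 0.461).

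The R7 opsins together, *Rh3* plus *Rh4*, gained on the R8 opsins, *Rh5* plus *Rh6*. Their share of the 4 was 61.3 to 67.8% in *yw* (median 63.0%), 65.4 to 68.9% in *tim_in24*, 64.1 to 69.7% in *tim_up10*, 64.6 to 71.9% in *tim_up122* and 62.6 to 69.8% in *tim_up126*. The log2 ratio rose by 0.24, 0.22, 0.31 and 0.17 in the same order of strains (exact permutation, adjusted p = 0.00366, 0.00366, 0.000343 and 0.000686). *ninaE* relative to the 4 inner opsins was lower in *tim_up126*, with a log2 ratio of -0.31 (adjusted p = 0.000343), and every library of that strain was below every *yw* library at 5 of 6 time points. In *tim_in24* the value was 0.08 (exact permutation, adjusted p = 0.0329), and it did not pass in 8 of 17 fits that left out 1 library (adjusted p up to 0.165, without *tim_in24* ZT10). The values of 0.01 in *tim_up10* and -0.08 in *tim_up122* did not pass (adjusted p = 0.846 and 0.144).

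**Figure D3:**
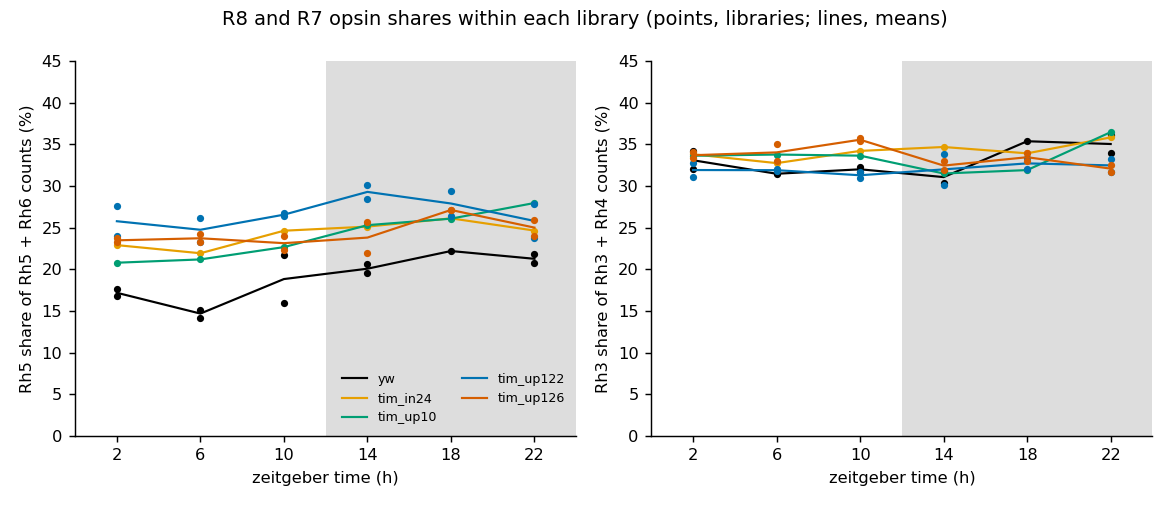
Share of *Rh5* in the counts of the R8 opsins *Rh5* and *Rh6* (left) and of *Rh3* in the counts of the R7 opsins *Rh3* and *Rh4* (right), in percent, against zeitgeber time in hours; points are libraries, lines are means of a strain and gray marks lights off. The *yw* points lie below those of every deletion strain at each time point on the left, from 14.2 to 22.2%, and overlap them on the right.

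All 7 opsins showed a 24 h rhythm when the 47 libraries were fitted together with strain as a term (edgeR's quasi-likelihood test of a cosine and a sine), where 31.3% of all genes did. The rhythm of *Rh5* was the widest of the family, with a log2 amplitude of 0.38, a fitted peak 1.69 times the trough, and a phase of 14.3 h (adjusted p = 1.08e-13, rank 70 of all genes by p). *Rh6* had an amplitude of 0.29 and a phase of 12.5 h (adjusted p = 1.04e-10), *Rh4* 0.18 and 14.1 h (adjusted p = 1.15e-06), and *Rh3* 0.16 and 14.7 h (adjusted p = 7.22e-05). So the 4 inner opsins peaked around and shortly after lights off.

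The other opsins peaked elsewhere in the day. *ninaE* had an amplitude of 0.11 and a phase of 18.4 h (adjusted p = 0.0139), and *Rh2* 0.18 and 22.3 h (adjusted p = 0.00892). *Rh7* peaked in the light phase, with an amplitude of 0.18 and a phase of 8.27 h (adjusted p = 0.000341). Scaled to the photoreceptor markers, the *Rh2* rhythm was 0.08 and did not pass (adjusted p = 0.226), while the other 6 passed. On that scale the amplitude was 0.37 for *Rh7*, 0.27 for *Rh4*, 0.24 for *Rh3*, 0.42 for *Rh6*, 0.43 for *Rh5* and 0.11 for *ninaE*. For comparison, the median amplitude with TMM scaling was 0.09 over all genes tested and 0.17 over those called. The phases given here are those with TMM scaling, and phases on the marker scale were not compared. Of the 11 markers, 10 had a called rhythm with a phase between 16 and 24 h, and 1 had a phase before 12 h.

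**Figure D4:**
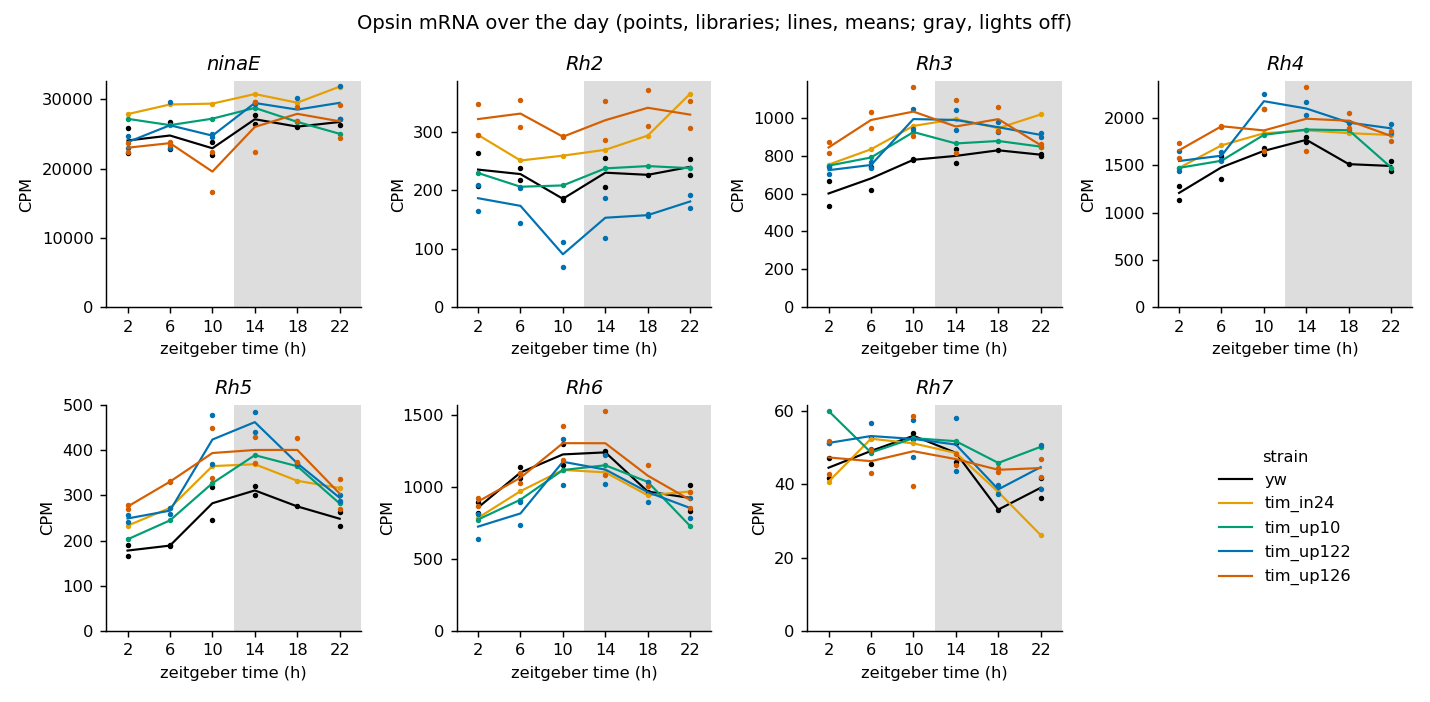
Level of each opsin gene in CPM against zeitgeber time in hours, by strain; points are libraries, lines are means and gray marks lights off. *Rh5* and *Rh6* have their highest means between ZT10 and ZT18 in each strain, and *Rh2* in *tim_up122* is lowest at ZT10.

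The levels by time point show the course. Over the 5 strains, *Rh5* had a median of 237 CPM at ZT2 (lowest 165, highest 280), 266 at ZT6 (188 to 332), 352 at ZT10 (246 to 477), 381 at ZT14 (302 to 485), 369 at ZT18 (276 to 427) and 285 at ZT22 (232 to 337). Every library at ZT14 was therefore above every library at ZT2. How many of all genes separate in this way was not counted. In *yw* alone, the *Rh5* replicates had 191 and 165 CPM at ZT2 and 302 and 320 CPM at ZT14. *Rh5* was highest at ZT14 in 4 strains and at ZT18 in *tim_up126*, and it was lowest at ZT2 in all 5.

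*Rh6* had a median of 815 CPM at ZT2 (636 to 925), 999 at ZT6 (732 to 1139), 1166 at ZT10 (1015 to 1422), 1183 at ZT14 (1021 to 1525), 1004 at ZT18 (895 to 1149) and 890 at ZT22 (727 to 1010). Every library at ZT10 and ZT14 was above every library at ZT2, and again the share of all genes that do so was not counted. *Rh4* rose from a median of 1474 CPM at ZT2 (1134 to 1739) to 1875 at ZT14 (1654 to 2333), and *Rh3* from 745 CPM at ZT2 (533 to 871) to 932 at ZT10 (775 to 1163), with overlap between the time points. *Rh3* and *Rh4* were also lowest at ZT2 in all 5 strains.

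For *ninaE* the medians were 24173 CPM at ZT2 (22257 to 27874), 24217 at ZT10 (16685 to 29391) and 29043 at ZT14 (22454 to 30777), so the time points overlapped. *Rh2* had its lowest median at ZT10, 198 CPM (69.1 to 293), and 246 CPM at ZT22 (170 to 366). *Rh7* had a median of 52.5 CPM at ZT10 (39.4 to 58.6) and 39.9 CPM at ZT18 (33.1 to 45.8).

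The share of *Rh5* among the R8 opsins in *yw* was 14.2 and 15.2% at ZT6, 15.9 and 21.7% at ZT10, and 22.2% in the single library at ZT18. The replicates at ZT10 spanned most of this range, and no test of the share over the day was made. In *tim_up122* it was 24.7% at ZT6 and 29.3% at ZT14, and in *tim_up126* it was 23.7% at ZT6 and 27.1% at ZT18. The phase of *Rh5* in the pooled fit was 14.3 h and that of *Rh6* 12.5 h, and their difference was not tested.

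Light and dark time points were compared directly, as ZT2, ZT6 and ZT10 minus ZT14, ZT18 and ZT22, averaged over the 5 strains. *Rh5*, *Rh3*, *Rh4* and *ninaE* were lower in the light and *Rh7* was higher, so that 5 of 7 opsins were called, where 18.8% of all genes were. The log2 differences were -0.30 for *Rh5* (standard error 0.044, adjusted p = 1.41e-05), -0.15 for *Rh3* (adjusted p = 0.0134), -0.13 for *Rh4* (adjusted p = 0.0276), -0.15 for *ninaE* (adjusted p = 0.0387) and 0.23 for *Rh7* (standard error 0.053, adjusted p = 0.00294). For *Rh6*, which was high on both sides of lights off, the difference was -0.05 (adjusted p = 0.571), and for *Rh2* it was -0.15 (adjusted p = 0.119). The values of *ninaE* and *Rh4* crossed the threshold in 13 and 3 of the 47 fits that left out 1 library, with an adjusted p of at most 0.0658 (without *tim_up10* ZT14) and 0.0698 (without *tim_in24* ZT2), and 3 opsins were called without either of these libraries.

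All 11 photoreceptor markers had a rhythm in the same pooled fit, and scaling to their sum shifted every gene by 0.20 in this comparison. On that scale *ninaE*, *Rh3* and *Rh4* were at 0.04, 0.05 and 0.06 and did not pass, *Rh5* was at -0.10 (adjusted p = 0.0585), *Rh6* was higher in the light at 0.14 (adjusted p = 0.0139) and *Rh7* was at 0.43 (adjusted p = 3.71e-05).

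Rhythms were also tested within each strain. *Rh5* and *Rh6* passed in *yw*, *tim_up10*, *tim_up122* and *tim_up126*. The amplitude of *Rh5* was 0.42 in *yw* (adjusted p = 0.00178), 0.46 in *tim_up10* (adjusted p = 0.000824), 0.47 in *tim_up122* (adjusted p = 9.87e-05) and 0.29 in *tim_up126* (adjusted p = 0.0148). Its phase lay between 13.7 and 15.2 h in the 5 strains. The amplitude of *Rh6* was 0.27 in *yw* (adjusted p = 0.00380), 0.36 in *tim_up10* (adjusted p = 0.00518), 0.34 in *tim_up122* (adjusted p = 0.0194) and 0.30 in *tim_up126* (adjusted p = 0.00989), with phases between 11.7 and 13.3 h in the 5 strains. In *tim_up126* the *Rh5* call was lost without either replicate at ZT2 (adjusted p up to 0.0578).

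*Rh4* passed in *yw* (0.23, adjusted p = 0.0177) and *tim_up122* (0.24, adjusted p = 0.0325), *Rh3* in *tim_up122* (0.24, adjusted p = 0.0199) and *Rh7* in *yw* (0.25, adjusted p = 0.0191). The *yw* call of *Rh7* was lost without *yw* ZT22 replicate 1 (adjusted p = 0.0793), and that of *Rh4* without *yw* ZT2 replicate 1 or *yw* ZT14 replicate 1 (adjusted p up to 0.0559). *ninaE* and *Rh2* passed in no strain alone. In all, 4 of 7 opsins were called in *yw*, 2 in *tim_up10*, 4 in *tim_up122*, 2 in *tim_up126* and 0 in *tim_in24*, where 16%, 2.6%, 7.74%, 6.36% and 1.25% of all genes tested were called. The *tim_up122* calls of *Rh3*, *Rh4* and *Rh6* were each lost without 2 to 5 single libraries, among them *tim_up122* ZT2 replicate 1, without which only *Rh5* passed. With 6 libraries in *tim_in24*, edgeR gave an unadjusted p under 0.05 for 3 opsins, *Rh2*, *Rh5* and *Rh7*, and adjusted p from 0.117 to 0.939.

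The difference of each rhythm from that in *yw* was tested as an interaction. None of the 28 differences (7 opsins in 4 strains) passed with edgeR, none had an unadjusted p under 0.05, and the adjusted p ran from 0.552 to 1. Of all genes tested, 0% were called for *tim_in24*, 0.124% for *tim_up10*, 2.07% for *tim_up122* and 1.61% for *tim_up126*. Rhythms called in one strain and not in another were thus not shown to differ.

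**Figure D5:**
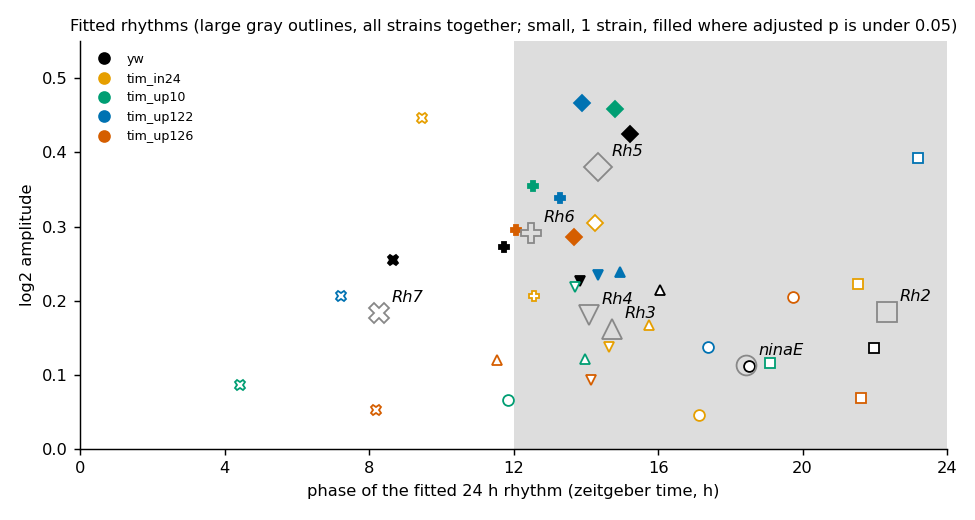
Log2 amplitude against phase (zeitgeber time in hours) of the fitted 24 h rhythm of each opsin gene; large gray outlines are the fits over all strains, small symbols of the same shape are single strains, filled where the adjusted p is under 0.05, and gray marks lights off. *Rh3*, *Rh4*, *Rh5* and *Rh6* lie at 12.5 to 14.7 h in the pooled fit, *Rh7* at 8.27 h, *ninaE* at 18.4 h and *Rh2* at 22.3 h.

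Among themselves the inner opsins varied together. Across the 47 libraries, which share strain, time point and depth in part, Pearson's r of log2 CPM was 0.89 for *Rh4* with *Rh5*, 0.89 for *Rh3* with *Rh4* and 0.86 for *Rh3* with *Rh5*. *Rh6* was less close to these, with r of 0.48 to 0.58. For *ninaE* the values with the inner opsins were -0.05 to 0.36, and *Rh2* and *Rh7* had r between -0.31 and 0.10 with every other opsin. These values are descriptions, since libraries of a strain and time point are not independent of the groups.

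The genes most like each opsin over the 47 libraries were taken as the 3 of highest Pearson's r among 8882 other genes with a mean of at least 5 CPM. For *ninaE* these were *Arr1* (0.85) and *Arr2* (0.70), the arrestins that bind activated rhodopsin, and CG12333 (0.70). For *Rh3* they were CG11241 (0.72), *Rm62* (0.70) and CG4822 (0.69), and for *Rh4* CG11241 (0.76), CG1561 (0.74) and the clock gene *vri* (0.71). *Rh5* was followed by *cyr* (0.81), *Pfrx* (0.80) and CG11241 (0.79). CG11241 was thus among the nearest genes of *Rh3*, *Rh4* and *Rh5*. *Rh6* was closest to *Inos* (0.81), which encodes inositol-3-phosphate synthase, *alphaTub84B* (0.80) and *RpII140* (0.75), *Rh2* to *Cyp6a8* (0.76), *Dhc98D* (0.76) and *Zasp52* (0.75), and *Rh7* to CG31140 (0.77), *shakB* (0.77), an innexin of gap junctions, and CG34417 (0.76).

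Activated rhodopsin signals through a Gq protein and phospholipase C to the TRP and TRPL channels. Of 22 genes of this cascade, 11 were higher and 3 lower in *tim_in24*, 13 and 1 in *tim_up10*, 8 and 1 in *tim_up122*, and 6 and 0 in *tim_up126*, with medians of 0.17, 0.20, 0.10 and 0.04 on the log2 scale. *Arr2*, *Ggamma30A* (a subunit of the G protein), *inaC* (the eye protein kinase C), *inaF-B* (a partner of the TRP channel) and *trp* were higher in all 4 strains. The log2 fold changes of *inaC* were 0.61, 0.61, 0.40 and 0.36 in *tim_in24*, *tim_up10*, *tim_up122* and *tim_up126*, those of *trp* 0.30, 0.33, 0.40 and 0.49, and those of *Arr2* 0.56, 0.39, 0.26 and 0.32. *inaF-B* was higher by 0.20 to 0.46 and *Ggamma30A* by 0.14 to 0.22. The second channel, *trpl*, was lower in 3 strains (-0.28, -0.35 and -0.33) and at -0.06 in *tim_up126*. The share of all genes called was 12.3%, 11.2%, 12.6% and 12.1% higher, and 13.1%, 12.2%, 13.6% and 13.3% lower, in the same order.

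In the pooled fit 19 of these 22 genes had a rhythm. None of the 19 had its phase between 12 and 16 h, where *Rh3* to *Rh6* lay, while 15 lay between 16 and 24 h, a window set after the values were seen. *inaD*, the scaffold of the cascade, had an amplitude of 0.94 and a phase of 22.7 h, and *Arr1* lay at 18.9 h, near *ninaE*. Of 12 genes for the maturation of opsins and their chromophore, 10 had a rhythm. *ninaA*, a chaperone needed for Rh1, had an amplitude of 0.43 and a phase of 18.6 h, and *ninaB*, which cleaves carotenoids, had 0.25 and 8.99 h. Over the day, 3 of the 12 were higher and 3 lower in *tim_in24*, 1 and 3 in *tim_up10*, 3 and 1 in *tim_up122* and 1 and 0 in *tim_up126*. The widest change among these genes was that of *ninaD* in *tim_up10*, at -3.21 on the log2 scale. In *tim_in24*, *tim_up122* and *tim_up126* *ninaD* was at -0.31, 0.06 and 0.13. *ninaA* was lower in *tim_in24*, *tim_up10* and *tim_up122* (-0.25, -0.37 and -0.24) and at 0.08 in *tim_up126*, and *santa-maria*, a carotenoid receptor, was higher in the same 3 strains (0.22, 0.27 and 0.20) and at 0.11 in *tim_up126*.

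Which opsin a photoreceptor expresses is set during development by transcription factors and, in R8, by the opposing genes *wts* and *melt*. Of 31 such genes, 30 were matched in the counts and 29 were tested. The numbers higher and lower were 2 and 5 in *tim_in24*, 1 and 1 in *tim_up10*, 2 and 1 in *tim_up122* and 2 and 3 in *tim_up126*, with medians between -0.09 and 0.04. Of all genes tested, 11.2 to 12.6% were higher and 12.2 to 13.6% lower in the 4 strains. Only *svp*, a nuclear receptor of developing outer photoreceptors, passed in at least 3 comparisons, and it was higher in all 4 (0.60, 0.55, 0.48 and 0.50). *wts* and *melt*, the pair that separates *Rh5* from *Rh6* cells, passed in none of the 4. In the pooled fit 10 of the 29 genes had a rhythm, or 34.5%, against 31.3% of all genes.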

How the data were processed

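The deposited counts are whole reads per gene symbol on dm6. The submitters' processing text names STAR and featureCounts for the authors' counting, while the paper's methods name Tophat and ESAT; versions, annotation and strand setting are not given in the sources used here. The authors' normalized table, the same counts divided by 1 factor per library, was not used. No per-sample column lacked a sample. The opsin genes and all lists were chosen with earlier results of these data known.

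Counts were filtered with filterByExpr, scaled by TMM and tested with edgeR 4.0.16 (quasi-likelihood, R 4.3.3, limma 3.58.1) in 30 groups of strain and time point, with Benjamini-Hochberg adjustment and a threshold of 0.05. Log2 CPM used a prior count of 2. Ratios were tested by exact permutation, listing every split, in Python 3.11.15 with numpy 2.4.6. Scripts were tested on simulated data. Genes named were the 7 opsins, the 3 genes most correlated with each, listed genes passing in at least 3 of 4 comparisons, *tim*, *y* and *w*. The genes *inaD*, *ninaB*, *ninaD*, *moody*, *wts* and *melt* were chosen for naming after their values were seen. Alternatives were other scalings, no filter, other models, DESeq2 1.42.0, a replicate block and leaving out each library. Annotation came from Ensembl on dm6.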

Additional observations from a re-analysis of the deposited data

Results flagged for a closer look

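2 differences between deletion strains stood out because the strains differed from *yw* in opposite directions, and both concern *Rh2*. The log2 difference of *tim_up122* from *tim_in24* was -0.91 (edgeR, adjusted p = 5.71e-07), and that of *tim_up126* from *tim_up122* was 1.08 (adjusted p = 1.59e-09). Each was tested directly between the 2 strains.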

How the results depend on the processing

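Of the results other than counts and ratios, 445 values under the planned and added alternatives kept their direction and side of the threshold, 20 lost the threshold, 20 passed it newly and 26 changed sign. The number of opsins called in *tim_in24* (5) was 3 with library totals, 2 with scaling to photoreceptor markers (*Rh6* and *Rh7*, both lower, with none of the 5 higher calls left), 3 with the replicate block, 2 without both *yw* ZT22 libraries, and 2 to 5 when each library was left out. In *tim_up10* (1) it was 2 with marker scaling (*Rh6* and *ninaE*, both lower, with *Rh5* lost), 1 with library totals (*Rh6*, lower, with *Rh5* lost), and *Rh5* plus 1 more, or 2 in all, with no filter, an additive model, replicates numbered 1 alone or DESeq2, 3 with only the 2 genotypes, and 1 to 2 with each library left out. In *tim_up126* (4) it was 2 in replicates numbered 2 alone, where *Rh2* (0.49, adjusted p = 0.0529) and *Rh4* (0.27, adjusted p = 0.0518) did not pass. In light against dark (5) it was 3 with library totals, 2 with marker scaling (*Rh6* and *Rh7*, both higher in the light) and 3 to 6 with each library left out. The counts of rhythms with each library left out were 0 to 1 in *tim_in24*, 1 to 5 in *tim_up122* and 1 to 2 in *tim_up126*. The log2 ratio of *Rh3* to *Rh4* then ran from 0.047 to 0.11 in *tim_in24* and -0.083 to -0.040 in *tim_up122*, and that of *ninaE* to the inner opsins from 0.048 to 0.10 in *tim_in24*, -0.022 to 0.044 in *tim_up10* and -0.12 to -0.052 in *tim_up122*. The cause was not tested.

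Signs changed with marker scaling for *ninaE* (-0.061), *Rh3* (-0.0041) and *Rh4* (-0.083) in *tim_in24*, for *ninaE* (-0.16), *Rh2* (-0.23), *Rh3* (-0.076), *Rh4* (-0.11) and *Rh7* (-0.038) in *tim_up10*, for *ninaE* (-0.029) and *Rh7* (-0.0047) in *tim_up122*, for *Rh6* (-0.12) and *Rh7* (-0.090) in *tim_up126*, and in light against dark for *ninaE* (0.045), *Rh2* (0.052), *Rh3* (0.047), *Rh4* (0.064) and *Rh6* (0.14). Library totals turned *ninaE* (-0.037) and *Rh2* (-0.10) in *tim_up10*. Without both *yw* ZT22 libraries *Rh7* was 0.017 in *tim_in24*. Replicates numbered 1 alone gave -0.030 for *Rh2* in *tim_up10* and 0.00015 for *ninaE* in *tim_up126*, and those numbered 2 alone gave 0.015 for *Rh6* and -0.094 for *Rh7* in *tim_up122* and -0.0083 for *Rh6* in *tim_up126*. With each library left out, *Rh2* in *tim_up10* ran from -0.0058 to 0.063 and *Rh7* in *tim_in24* from -0.14 to 0.020. Leaving out both *yw* ZT22 libraries, the replicates alone, and library totals for light against dark were chosen after seeing the data. Scaling by library totals moved the median of all genes by -0.13 in *tim_up10*.

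Replicate numbers did not pair the libraries of different strains at a time point: in 0 of 16 pairs was the correlation of deviations over 0.1 (-0.13 to 0.09). This comparison between strains cannot show sets of replicates within a strain. Such sets were seen with transcript length in *tim_up126* and *tim_up122*. Whether the replicate block takes them up was not tested. The replicate block gave 3 calls in *tim_in24*, with *ninaE* at 0.18 (adjusted p = 0.122) and *Rh4* at 0.18 (adjusted p = 0.0529), turned *Rh2* in *tim_up10* to -0.039, and changed no other opsin call. The lowest opsin count in any library was 82; the part of depth in the calls was not tested. *tim_in24* and *tim_up10* had no replicates within a time point.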
